A study of Mus musculus with 18 samples.

Results

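The subunits of NF-kB and the feedback inhibitors that NF-kB itself induces were followed in J774.1 cells, a mouse macrophage cell line, after a short treatment with inhibitors of the transcriptional co-repressors CTBP1 and CTBP2. The members were 10 genes chosen by symbol, of 18204 genes in the deposited table, and all 10 passed the filter on low values together with 16383 genes in all. They comprised the subunit genes Nfkb1, Nfkb2, Rel and Relb, the classical IkB genes Nfkbia and Nfkbie, the nuclear IkB genes Nfkbiz and Bcl3, the ubiquitin-editing enzyme gene Tnfaip3 (A20) and the adaptor gene Traf1. RNA-seq covered 18 samples in 6 groups of 3 biological replicates. Wildtype J774.1 cells and Ctbp1/2dKO cells, in which both Ctbp genes had been mutated with CRISPR-Cas9, were each kept for 4 h with vehicle (PBS/DMSO), with MTOB at 1.5 mM or with 4-Cl-HIPP at 250 µM. MTOB is a keto acid of methionine metabolism and 4-Cl-HIPP an oxime acid with a chlorinated phenyl ring, and both compete for the substrate pocket of the CTBP dehydrogenase domain. The study asked how specific the inhibitors are, so each was given to cells with and without the Ctbp mutations. MTOB was dissolved in PBS and 4-Cl-HIPP in DMSO, a single vehicle group per genotype served for both, and the doses differ, so the inhibitors' values are set side by side without a comparison. The Ctbp1/2dKO cells grew out from single cells, and the number of clones behind the 9 samples is not given in the sources used here, so genotype cannot be told apart from differences between clones.

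NF-kB dimers are held in the cytoplasm of resting cells by IkB proteins, and receptors such as TLRs and TNF receptors activate a kinase complex that marks the IkB proteins for degradation. The released dimers enter the nucleus and induce cytokines and chemokines as well as genes of their own circuit. Among the latter, Nfkbia, Nfkbie and Tnfaip3 switch the response off again, and in macrophages the RNA of these genes is widely used as a readout of the pathway.

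The promoters of the members were read for the kappa B motif, the sequence to which NF-kB dimers bind. The RefSeq promoter table of mouse build GRCm38.p6 held 7 of the 10 members in 10 windows, and Nfkb1, Relb and Nfkbiz had no entry. Over the 250 bases before each transcription start, searched on both strands, 7 of the 10 member windows held a match, compared with 7.25% of the 32851 windows in the table. By gene, the motif was found for 5 of the 7 members, namely Nfkb2, Rel, Nfkbia, Nfkbie and Tnfaip3, and for 8.23% of 27025 genes. The 3 windows shown first belong to members with a match whose RNA rose with MTOB in both genotypes (Nfkbia and Nfkb2) or passed the test for a rise in Ctbp1/2dKO but not in wildtype cells (Nfkbie). The last 2 belong to members whose RNA rose in both genotypes and whose window held no match. Of the members with a match that are not shown, Rel passed in Ctbp1/2dKO but not in wildtype cells and Tnfaip3 in neither genotype. The sequences run 5′ to 3′ towards the start, with matches to the motif in capitals. Matches on opposite strands can overlap, as they do at the first site of Nfkb2.
Nfkbia (chr12:55492648-55492897, minus strand): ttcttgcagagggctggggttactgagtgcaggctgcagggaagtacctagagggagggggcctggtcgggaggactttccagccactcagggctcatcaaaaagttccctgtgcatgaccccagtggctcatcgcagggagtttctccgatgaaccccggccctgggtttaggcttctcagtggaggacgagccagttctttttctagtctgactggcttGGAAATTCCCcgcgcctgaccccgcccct
Nfkb2 (chr19:46304487-46304736, plus strand): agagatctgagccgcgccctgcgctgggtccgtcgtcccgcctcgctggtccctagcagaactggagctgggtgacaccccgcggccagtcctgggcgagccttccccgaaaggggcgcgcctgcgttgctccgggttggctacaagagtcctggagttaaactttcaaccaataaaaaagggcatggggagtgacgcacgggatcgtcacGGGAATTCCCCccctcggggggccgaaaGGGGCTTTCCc
Nfkbie (chr17:45555450-45555699, plus strand): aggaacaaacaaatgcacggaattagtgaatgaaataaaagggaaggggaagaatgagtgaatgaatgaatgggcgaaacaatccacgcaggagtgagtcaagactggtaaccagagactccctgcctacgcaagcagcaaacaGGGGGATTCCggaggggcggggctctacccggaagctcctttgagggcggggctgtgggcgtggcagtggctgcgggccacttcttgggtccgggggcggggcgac
Traf1 (chr2:34961773-34962022, minus strand): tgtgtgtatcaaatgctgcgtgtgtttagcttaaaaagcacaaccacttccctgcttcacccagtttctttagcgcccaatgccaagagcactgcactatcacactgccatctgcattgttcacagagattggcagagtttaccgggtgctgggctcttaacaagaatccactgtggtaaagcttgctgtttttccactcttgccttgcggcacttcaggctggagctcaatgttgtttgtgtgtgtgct
Bcl3 (chr7:19822756-19823005, minus strand): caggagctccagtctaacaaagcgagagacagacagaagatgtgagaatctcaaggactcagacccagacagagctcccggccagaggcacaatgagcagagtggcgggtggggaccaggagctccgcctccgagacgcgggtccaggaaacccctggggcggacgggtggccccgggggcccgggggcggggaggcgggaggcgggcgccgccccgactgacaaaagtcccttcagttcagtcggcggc
In Nfkbia the match began 29 bases before the start on the strand opposite to the one printed, and in Nfkbie 106 bases before it. In Nfkb2 the stretches in capitals began 39 and 11 bases before the start. A match is a description of the letters, and binding was not measured here.

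The table gives TPM (transcript abundance scaled for transcript length and to a fixed sum in each sample), so the depth of each library is unknown. Between replicates of a group, Pearson's r of log2(TPM + 1) over genes was 0.983 to 0.987. Ctbp1 had 204 to 238 TPM in wildtype and 24.4 to 25.6 TPM in Ctbp1/2dKO cells under vehicle, a log2 fold change of -3.07 (limma, Benjamini-Hochberg-adjusted p = 1.61e-10). Ctbp2 had 87.8 to 96.9 TPM and 73.5 to 79.4 TPM, a log2 fold change of -0.28 (limma, Benjamini-Hochberg-adjusted p = 0.00427). A gene's TPM do not tell mutated from intact transcripts, so these RNA levels are no measure of the proteins. The paper reports loss of both CTBP proteins by western blot, and sequencing of PCR products from selected clones. Of 10 macrophage markers 9 had a row, which summed to 2354 to 3472 TPM per sample, whereas marker lists of T cells, B cells, fibroblasts, epithelial and endothelial cells and neutrophils summed to at most 2.10 TPM. Single macrophage markers moved with genotype and with MTOB. Under vehicle, 3 of the 9 (Cd68, Itgam and Fcgr1) were higher and 3 (Adgre1, Cd14 and Mpeg1) lower in Ctbp1/2dKO than in wildtype cells. Of all genes, 7.01% were higher and 3.72% lower. Adgre1 (F4/80) averaged 29.1 and 8.93 TPM and Itgam (CD11b) 15.8 and 47.9 TPM in wildtype and Ctbp1/2dKO cells under vehicle. With MTOB, 4 of the 9 rose in wildtype (Adgre1, Cd68, Lyz2 and Cd14) and 3 in Ctbp1/2dKO cells (Lyz2, Spi1 and Cd14), and 0 fell. The shares of all genes were 3.8% that rose and 3.46% that fell in wildtype cells. In Ctbp1/2dKO cells they were 3.04% and 3.54%. Adgre1 rose to a mean of 102 TPM in wildtype cells, a log2 fold change of 1.79 (SE 0.18, limma, Benjamini-Hochberg-adjusted p = 1.01e-05). The part of these markers in the results was not tested.

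In vehicle-treated wildtype cells the members spanned a wide range of RNA levels. Nfkb1, which encodes p105 and its product p50, was the most abundant at 82.0 ± 2.35 TPM (SD, n = 3), followed by Nfkbia, which encodes IkB alpha, at 68.8 ± 5.61 TPM (SD, n = 3). Nfkb2, the gene of p100 and p52, had 26.8 ± 0.812 TPM (SD, n = 3). Rel (c-Rel) had 13.8 ± 0.433 TPM and Traf1 10.8 ± 1.18 TPM (SD, n = 3). The ranges of neighbours in this order did not overlap down to Relb, with 6.69 ± 0.749 TPM, and Nfkbie, with 3.75 ± 0.673 TPM (SD, n = 3). Nfkbie, Nfkbiz, Tnfaip3 and Bcl3 overlapped with their neighbours at group means of 3.75 to 2.19 TPM. Mean normalized counts over all samples were lowest for Bcl3 (20.0), Tnfaip3 (39.5), Nfkbiz (42.3) and Nfkbie (60.4) and highest for Nfkb1 (1407). The calls of the first of these genes thus rest on few reads. Rela, the gene of the p65 subunit and no member here, had 36.4 ± 1.03 TPM (SD, n = 3).

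**Figure D1:**
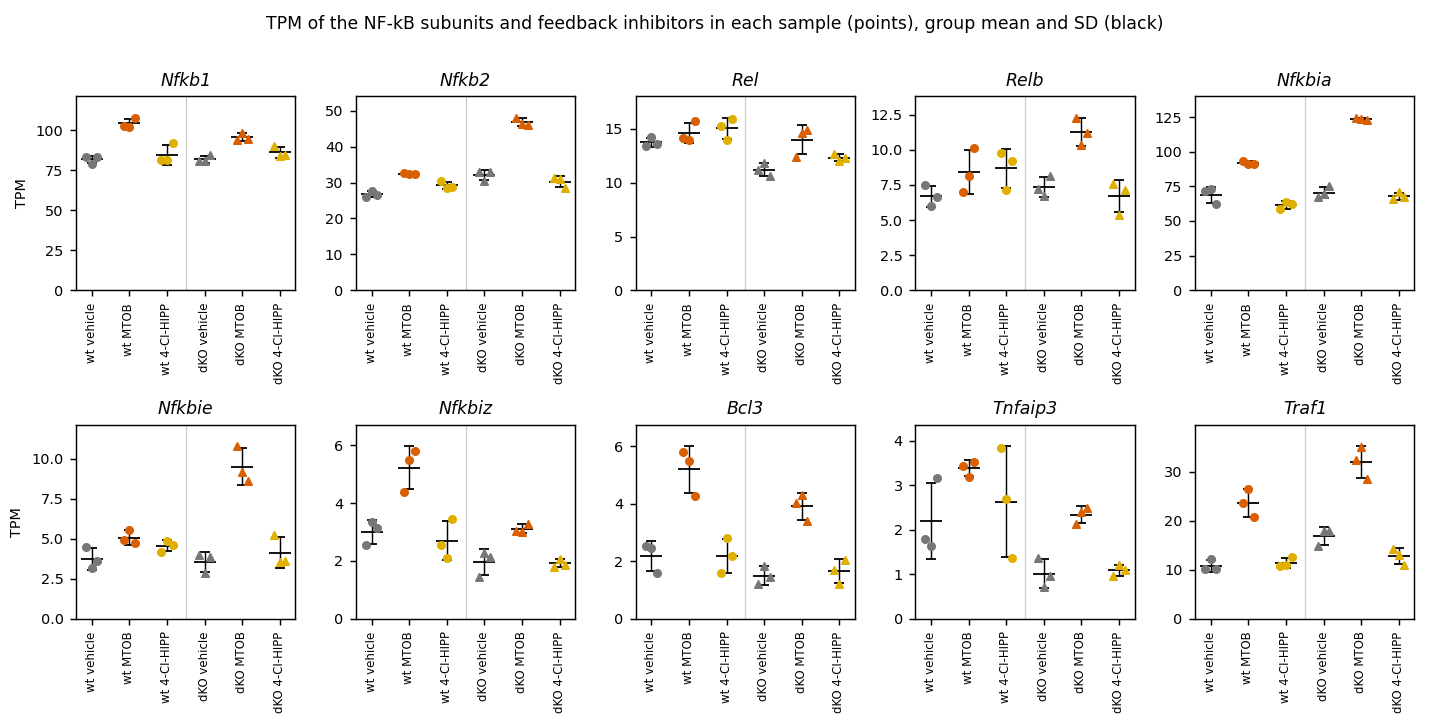
TPM (y axes, from 0, a scale of its own per gene) of the 10 members in each of the 18 samples, by genotype and treatment, with group means and SD (n = 3). Circles are wildtype (wt) and triangles Ctbp1/2dKO (dKO) samples. In the MTOB group of Ctbp1/2dKO cells every member lay above vehicle, and the 3 Nfkbia values sat between 123 and 124 TPM.

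Most of the members rose with MTOB in wildtype cells. Of the 10 members, 6 rose (Nfkb1, Nfkb2, Nfkbia, Nfkbiz, Bcl3 and Traf1), 3 of them by more than 1.5-fold, and 0 fell, compared with 3.8% of all genes tested that rose, 3.46% that fell and 1.56% that rose by more than 1.5-fold. Log2 fold changes of all 10 members were above 0, as were those of 46.3% of all genes, and their median was 0.39, against -0.01 over all genes. The 3 MTOB samples lay above the 3 vehicle samples for 8 of the 10 members, as for 10.6% of all genes. A gene passed the test at an adjusted p below 0.05 (limma on log2(TPM + 1), Benjamini-Hochberg over 16383 genes), and fold changes on this scale understate the change of genes with few TPM. In bulk RNA, more expressing cells and more RNA per cell cannot be told apart. The members were chosen with earlier results of these data known. Here and below, their counts beside the shares of all genes are therefore a description and no test of the members as a set.

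Among the subunits, the changes in wildtype cells were small. Nfkb1 (chr3:135290264-135397742, minus strand, build GRCm39) had 83.2, 79.2 and 83.4 TPM under vehicle and 103, 102 and 108 TPM with MTOB. The groups did not overlap, and the log2 fold change was 0.35 (SE 0.05, limma, Benjamini-Hochberg-adjusted p = 0.000270). Nfkb2 (chr19:46292759-46303812, plus strand) went from 26.1, 27.7 and 26.7 to 32.6, 32.3 and 32.3 TPM. Its groups were also apart, with a log2 fold change of 0.27 (SE 0.05, limma, Benjamini-Hochberg-adjusted p = 0.00245). Rel (chr11:23686847-23721264, minus strand) did not pass the test. Its values of 13.4, 14.3 and 13.6 TPM under vehicle overlapped with 14.2, 14.0 and 15.7 TPM under MTOB, and the 95% confidence interval of the log2 fold change ran from -0.07 to 0.23. Relb (chr7:19339017-19363425, minus strand), a partner of p52 in the non-canonical pathway, had 7.47, 5.97 and 6.65 TPM under vehicle. With MTOB it had 6.99, 8.14 and 10.1 TPM, and the groups overlapped, with an interval of -0.04 to 0.60 on the log2 scale.

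Of the 4 IkB genes, Nfkbia, Bcl3 and Nfkbiz rose in wildtype cells. Nfkbia (chr12:55535332-55539432, minus strand) had 71.4, 72.7 and 62.4 TPM under vehicle and 93.3, 91.1 and 91.1 TPM with MTOB. The lowest MTOB sample lay above the highest vehicle sample, and the log2 fold change was 0.41 (SE 0.06, limma, Benjamini-Hochberg-adjusted p = 0.000342). Nfkbie (chr17:45866585-45874661, plus strand), which encodes IkB epsilon, had 4.48, 3.16 and 3.60 TPM under vehicle and 4.93, 5.58 and 4.72 TPM with MTOB. Although these groups did not overlap, the log2 fold change of 0.36 did not pass the test (SE 0.15, limma, Benjamini-Hochberg-adjusted p = 0.188). Bcl3 (chr7:19541553-19557570, minus strand), a nuclear IkB protein that binds p50 and p52 homodimers, had 2.51, 2.46 and 1.59 TPM under vehicle and 5.81, 5.48 and 4.28 TPM with MTOB. All MTOB samples were higher, with a log2 fold change of 0.96 (SE 0.19, limma, Benjamini-Hochberg-adjusted p = 0.00408). Nfkbiz (chr16:55631738-55659262, minus strand), whose product IkB zeta is needed for a set of secondary response genes such as Il6, had 2.54, 3.33 and 3.15 TPM under vehicle and 4.39, 5.49 and 5.80 TPM with MTOB. Its groups were apart, with a log2 fold change of 0.63 (SE 0.15, limma, Benjamini-Hochberg-adjusted p = 0.0169). Nfkbiz no longer passed without wildtype vehicle replicate 1 (adjusted p = 0.0755), wildtype MTOB replicate 2 (0.0635) or wildtype MTOB replicate 3 (0.0722; limma, Benjamini-Hochberg).

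Traf1 rose in wildtype cells by about as much as Bcl3, and which of them changed more depended on the pseudocount. Traf1 (chr2:34831762-34851837, minus strand) encodes an adaptor of TNF receptor signalling. It had 10.1, 12.1 and 10.1 TPM under vehicle and 23.7, 26.4 and 20.8 TPM with MTOB. The groups were far apart, with a log2 fold change of 1.06 (SE 0.12, limma, Benjamini-Hochberg-adjusted p = 4.05e-05). With a pseudocount of 0.1 it was 1.12 for Traf1 and 1.23 for Bcl3. Tnfaip3 (chr10:18874201-18891405, minus strand), which encodes A20, had 1.80, 1.63 and 3.18 TPM under vehicle and 3.43, 3.19 and 3.54 TPM with MTOB. The MTOB samples lay just above the highest vehicle sample, replicate 3, and the log2 fold change of 0.49 did not pass the test (SE 0.22, limma, Benjamini-Hochberg-adjusted p = 0.259).

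Library preparation did not keep the strand, and 6 of the 10 members are overlapped by an annotated gene on the opposite strand in GENCODE M39. These are noncoding genes, plus Psd for Nfkb2, so reads from such a partner cannot be told apart by strand. Rel, Relb, Nfkbie and Nfkbiz have no overlapping annotated gene.

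The members also rose with MTOB in Ctbp1/2dKO cells. Of the 10, 8 rose, 4 of them by more than 1.5-fold, and 0 fell, compared with 3.04% of all genes that rose, 3.54% that fell and 1.15% that rose by more than 1.5-fold. For all 10 members the 3 MTOB samples lay above the 3 vehicle samples, as for 9.51% of all genes, and 45.8% of all genes had a log2 fold change above 0. The median log2 fold change of the members was 0.65, against -0.01 over all genes. Nfkb1, Nfkb2, Nfkbia, Bcl3 and Traf1 rose in both genotypes, as did 1.98% of all genes.

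Both classical IkB genes rose in Ctbp1/2dKO cells. Nfkbia had 67.2, 69.2 and 75.2 TPM under vehicle and 124, 123 and 123 TPM with MTOB in Ctbp1/2dKO cells. The samples of each group lay close together and the groups far apart, with a log2 fold change of 0.80 (SE 0.06, limma, Benjamini-Hochberg-adjusted p = 4.20e-07). Nfkbie had 3.98, 2.85 and 3.84 TPM under vehicle and 10.8, 9.16 and 8.59 TPM with MTOB. Every MTOB sample was above every vehicle sample, and the log2 fold change was 1.21 (SE 0.15, limma, Benjamini-Hochberg-adjusted p = 0.000103), the largest among the members in these cells. Bcl3 went from 1.20, 1.84 and 1.45 to 4.01, 4.30 and 3.40 TPM. Its groups were apart, with a log2 fold change of 0.98 (SE 0.19, limma, Benjamini-Hochberg-adjusted p = 0.00422). Nfkbiz had 1.45, 2.28 and 2.13 TPM under vehicle and 3.02, 3.01 and 3.29 TPM with MTOB, groups that did not overlap. Its log2 fold change of 0.49 did not pass the test (SE 0.15, limma, Benjamini-Hochberg-adjusted p = 0.0710).

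All 4 subunit genes rose in Ctbp1/2dKO cells, none by more than 1.5-fold with a pseudocount of 1. Among the alternative fits the log2 fold change of Relb reached 0.61, above the 1.5-fold limit of 0.585. Nfkb2 had 32.8, 30.6 and 32.9 TPM under vehicle and 48.0, 46.4 and 46.1 TPM with MTOB. The groups were well apart, with a log2 fold change of 0.53 (SE 0.05, limma, Benjamini-Hochberg-adjusted p = 3.97e-06). Nfkb1 went from 80.8, 80.8 and 84.5 to 93.9, 98.6 and 94.5 TPM. Its log2 fold change of 0.22 (SE 0.05, limma, Benjamini-Hochberg-adjusted p = 0.0116) missed the threshold by little without Ctbp1/2dKO vehicle replicate 2 (adjusted p = 0.0504). Relb had 7.19, 6.70 and 8.14 TPM under vehicle and 12.3, 10.3 and 11.2 TPM with MTOB. The groups did not overlap, and the log2 fold change was 0.55 (SE 0.15, limma, Benjamini-Hochberg-adjusted p = 0.0382). Rel had 11.2, 11.8 and 10.7 TPM under vehicle and 12.4, 14.6 and 14.9 TPM with MTOB, with a log2 fold change of 0.29 (SE 0.07, limma, Benjamini-Hochberg-adjusted p = 0.0197). The calls of Relb and Rel were lost in most or all fits that left out a single sample. Relb passed in none of the 6 fits that left out a vehicle or MTOB sample of Ctbp1/2dKO cells (adjusted p from 0.0506 to 0.137, limma, Benjamini-Hochberg). Rel did not pass without vehicle replicate 1 (0.0583), vehicle replicate 3 (0.0859), MTOB replicate 2 (0.0720) or MTOB replicate 3 (limma, Benjamini-Hochberg-adjusted p = 0.0816).

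Traf1 rose here too. It had 14.7, 17.9 and 17.99 TPM under vehicle and 32.3, 34.9 and 28.5 TPM with MTOB, groups that were far apart. The log2 fold change was 0.88 (SE 0.12, limma, Benjamini-Hochberg-adjusted p = 0.000288). Tnfaip3 had 1.36, 0.710 and 0.970 TPM under vehicle and 2.14, 2.40 and 2.49 TPM with MTOB. All MTOB samples were higher, and the log2 fold change of 0.74 did not pass the test with a pseudocount of 1 (SE 0.22, limma, Benjamini-Hochberg-adjusted p = 0.0619). It did pass with a pseudocount of 0.5 or 0.1 and with a stricter filter, a mean normalized count of 10 or more (limma, Benjamini-Hochberg-adjusted p = 0.0488, 0.0366 and 0.0393).

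**Figure D2:**
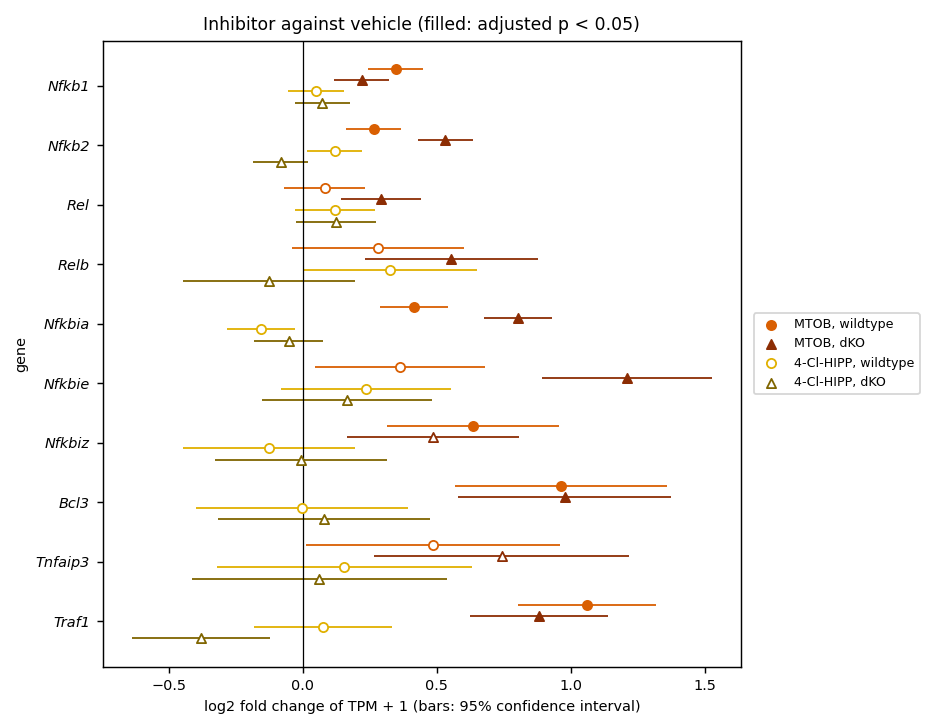
Log2 fold change of TPM + 1 (x axis) of each member (y axis) for each inhibitor against vehicle in wildtype and Ctbp1/2dKO (dKO) cells, with 95% confidence intervals from limma. Filled symbols passed the test. The MTOB symbols lie to the right of 0 for every member, whereas the 4-Cl-HIPP symbols lie between -0.38 and 0.33.

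No member passed the test with 4-Cl-HIPP in either genotype, against 0.366% of all genes (60 genes) that passed in wildtype and 0.501% (82 genes) that passed in Ctbp1/2dKO cells. At an unadjusted p below 0.05, 3 members stood out in wildtype cells (Nfkb2, Relb and Nfkbia) and 1 in Ctbp1/2dKO cells (Traf1), compared with 8.19% and 8.47% of all genes (limma). The median log2 fold change of the members was 0.10 in wildtype and 0.03 in Ctbp1/2dKO cells. The values of Nfkbia in wildtype cells were 58.6, 63.9 and 62.4 TPM with 4-Cl-HIPP, which overlapped with vehicle at its lower end. Its log2 fold change was -0.15 with a 95% confidence interval of -0.28 to -0.03 (limma, Benjamini-Hochberg-adjusted p = 0.484), and that of MTOB against the same vehicle samples was 0.41. Nfkb2 had 30.4, 28.4 and 28.8 TPM with 4-Cl-HIPP in wildtype cells, all above its vehicle samples as for 7.65% of all genes, with a log2 fold change of 0.12 (interval 0.02 to 0.22, limma, Benjamini-Hochberg-adjusted p = 0.515). In Ctbp1/2dKO cells Traf1 had 14.2, 13.03 and 11.02 TPM with 4-Cl-HIPP. These lay below all 3 vehicle samples, as for 5.73% of all genes, with a log2 fold change of -0.38 (interval -0.64 to -0.12, limma, Benjamini-Hochberg-adjusted p = 0.287). The intervals of the remaining members reached from -0.45 to 0.65 across both genotypes, so that changes of that size were not resolved, and Tnfaip3 had the widest interval in wildtype cells (-0.32 to 0.63). Wildtype 4-Cl-HIPP replicates of Tnfaip3 spread from 1.36 to 3.85 TPM.

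Under vehicle, some members differed between the genotypes before any inhibitor was given. Nfkb2 and Traf1 were higher and Rel was lower in Ctbp1/2dKO cells, and the other 7 members did not pass the test, with 7.01% of all genes higher and 3.72% lower. The Nfkb2 samples listed above did not overlap between genotypes, as for 15.1% of all genes with Ctbp1/2dKO samples all higher (log2 fold change 0.25, SE 0.05, limma, Benjamini-Hochberg-adjusted p = 0.00221). Traf1 was 1.52-fold higher (log2 fold change 0.60, SE 0.12, limma, Benjamini-Hochberg-adjusted p = 0.00345). Rel was lower by a log2 fold change of -0.27 (SE 0.07, limma, Benjamini-Hochberg-adjusted p = 0.0182), with 13.4 to 14.3 TPM in wildtype and 10.7 to 11.8 TPM in Ctbp1/2dKO cells. Rel no longer passed without wildtype vehicle replicate 2 (adjusted p = 0.0735), Ctbp1/2dKO vehicle replicate 1 (0.0544) or Ctbp1/2dKO vehicle replicate 3 (0.0831; limma, Benjamini-Hochberg). Nfkbia differed little, with a log2 fold change of 0.04 and a 95% confidence interval of -0.09 to 0.16. All Tnfaip3 and Nfkbiz samples of Ctbp1/2dKO cells lay below those of wildtype cells, as for 11% of all genes, with log2 fold changes of -0.65 and -0.45 that did not pass the test (limma, Benjamini-Hochberg-adjusted p = 0.0837 and 0.0779). With a pseudocount of 0.1 Tnfaip3 passed, at -1.03 on the log2 scale (limma, Benjamini-Hochberg-adjusted p = 0.0491).

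With MTOB present, 4 members were higher in Ctbp1/2dKO than in wildtype cells (Nfkb2, Nfkbia, Nfkbie and Traf1) and Nfkbiz was lower, while 6.98% of all genes were higher and 4.18% lower. Over all 10 members, the Ctbp1/2dKO samples with MTOB lay all above the wildtype samples for 5 and all below for 3. The shares of all genes were 13.4% and 10.1%. Those that passed the test were among these, and so were Relb (above) and Nfkb1 and Tnfaip3 (below), which did not pass. Nfkb2 differed by 0.52 on the log2 scale (SE 0.05, adjusted p = 1.94e-06) and Nfkbia by 0.42 (SE 0.06, limma, Benjamini-Hochberg-adjusted p = 0.000142). Nfkbie was 1.73-fold higher (log2 fold change 0.79, SE 0.15, limma, Benjamini-Hochberg-adjusted p = 0.00204). Traf1 was higher by 0.42 (SE 0.12, adjusted p = 0.0349) and Nfkbiz lower at -0.59 on the log2 scale (SE 0.15, limma, Benjamini-Hochberg-adjusted p = 0.0168). The call of Traf1 was lost without wildtype MTOB replicate 1 (adjusted p = 0.0821) or 3 (0.150) and without Ctbp1/2dKO MTOB replicate 1 (0.0831) or 2 (0.132; limma, Benjamini-Hochberg). That of Nfkbiz was lost without wildtype MTOB replicate 2 (adjusted p = 0.0610) or 3 (0.0744) and without Ctbp1/2dKO MTOB replicate 2 (0.0526; limma, Benjamini-Hochberg). The number of members that passed fell from 5 to 3 without wildtype MTOB replicate 3 or without Ctbp1/2dKO MTOB replicate 2.

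With 4-Cl-HIPP present, Rel and Tnfaip3 were lower in Ctbp1/2dKO cells and 0 members were higher, with 3.63% of all genes lower and 6.6% higher. Rel had 15.3, 14.0 and 15.9 TPM in wildtype and 12.7, 12.01 and 12.3 TPM in Ctbp1/2dKO cells. These groups did not overlap, as for 10.8% of all genes with Ctbp1/2dKO samples all lower (log2 fold change -0.27, SE 0.07, limma, Benjamini-Hochberg-adjusted p = 0.0209). Tnfaip3 had 3.85, 2.69 and 1.36 TPM in wildtype and 0.950, 1.21 and 1.10 TPM in Ctbp1/2dKO cells. Its groups were apart by little, with a log2 fold change of -0.74 (SE 0.22, limma, Benjamini-Hochberg-adjusted p = 0.0467). Both calls were lost in most of the fits that left out a single sample. Tnfaip3 passed only when wildtype 4-Cl-HIPP replicate 3 was the sample left out, and without wildtype replicate 1 or 2 or Ctbp1/2dKO replicate 1, 2 or 3 its adjusted p was 0.210, 0.131, 0.137, 0.0823 and 0.102 (limma, Benjamini-Hochberg). Rel was lost without wildtype 4-Cl-HIPP replicate 1 (adjusted p = 0.0705) or 3 (0.0947) and without Ctbp1/2dKO 4-Cl-HIPP replicate 2 (0.0734) or 3 (0.0611; limma, Benjamini-Hochberg).

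**Figure D3:**
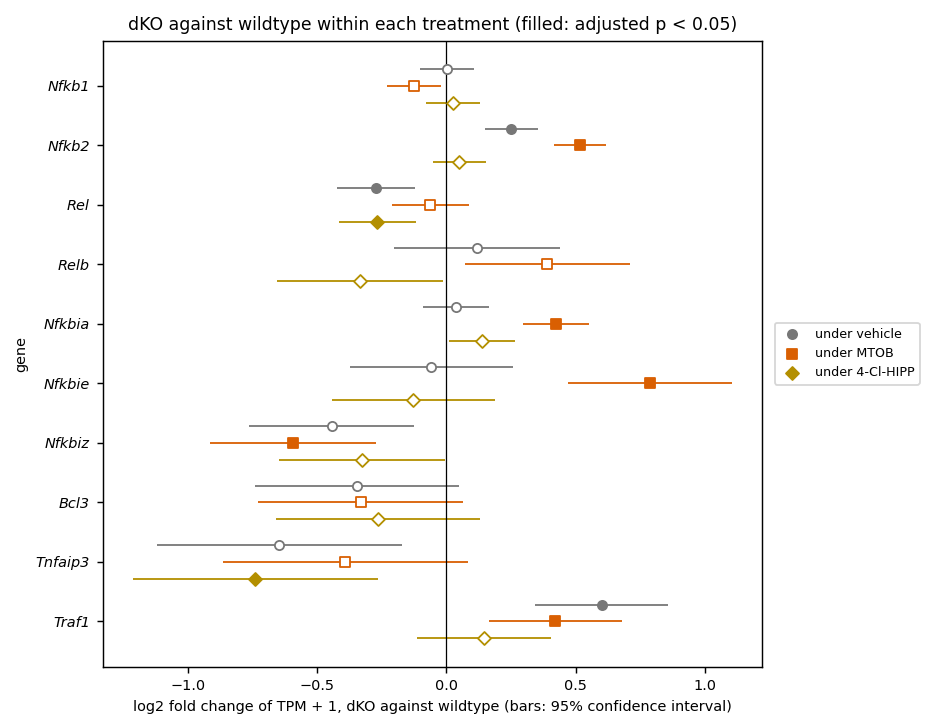
Log2 fold change of TPM + 1 (x axis) of each member (y axis) in Ctbp1/2dKO (dKO) against wildtype cells under vehicle, MTOB and 4-Cl-HIPP, with 95% confidence intervals from limma. Filled symbols passed the test. Under MTOB the symbols of Nfkb2, Nfkbia, Nfkbie and Traf1 are filled to the right of 0 and that of Nfkbiz to the left.

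Whether MTOB acted differently in the genotypes was tested with the difference of its effects, wildtype minus Ctbp1/2dKO. No member passed, and 15 of 16383 genes did (0.0916%). At an unadjusted p below 0.05 there were 3 members, all with the larger rise in Ctbp1/2dKO cells, and 6.89% of all genes (limma). Nfkbia differed by -0.39 on the log2 scale (SE 0.08, 95% confidence interval -0.57 to -0.21, limma, Benjamini-Hochberg-adjusted p = 0.149). Nfkbie differed by -0.85 (SE 0.21, interval -1.29 to -0.40, adjusted p = 0.264) and Nfkb2 by -0.27 (SE 0.07, interval -0.41 to -0.12, limma, Benjamini-Hochberg-adjusted p = 0.292). Without wildtype vehicle replicate 3, in which Nfkbia was lowest, its difference was -0.46 and passed the test (limma, Benjamini-Hochberg-adjusted p = 0.0493). The log2 fold change was larger in Ctbp1/2dKO cells for 7 members and in wildtype cells for 3 (Nfkb1, Nfkbiz and Traf1). Of all genes, 51.8% had a difference above 0, that is, the higher value in wildtype cells. Bcl3, at -0.01 with an interval of -0.57 to 0.55, had nearly equal estimates in both genotypes with a wide error.

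For 4-Cl-HIPP the same difference passed the test for 0 members and for 0% of all genes, with 734 genes (4.48%) and 2 members, Nfkb2 and Traf1, at an unadjusted p below 0.05 (limma). Traf1 differed by 0.46 (interval 0.09 to 0.82) and Nfkb2 by 0.20 (interval 0.06 to 0.35) on the log2 scale, each with an adjusted p of 1 (limma, Benjamini-Hochberg).

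The rest of the pathway was read from lists of its other genes. Like the members, these lists were chosen with earlier results of these data known, so their counts and medians are descriptions. Of 46 other pathway genes, 8 rose and 1 fell with MTOB in wildtype cells, and 6 rose and 0 fell in Ctbp1/2dKO cells, with 5 that rose in both. Of all genes, 3.8% rose and 3.46% fell in wildtype cells, 3.04% rose and 3.54% fell in Ctbp1/2dKO cells, and 1.98% rose in both. The median log2 fold change of the 46 genes was 0.06 and -0.00034, compared with 0.39 and 0.65 for the members. The genes that rose in both were Nfkbib, which encodes IkB beta, the kinase gene Ikbke, the adaptor kinase gene Irak2, and Tnip1 and Tnip3, whose products bind A20. Ikbke rose by 1.50 in wildtype and 0.65 in Ctbp1/2dKO cells (SE 0.16 each, limma, Benjamini-Hochberg-adjusted p = 2.55e-05 and 0.0241). Irak2 rose by 1.28 and 0.84 (SE 0.13 each, limma, Benjamini-Hochberg-adjusted p = 1.13e-05 and 0.000811). Tnip1 rose by 0.81 and 0.54 and Tnip3 by 0.72 and 0.80, all on the log2 scale. Cyld, a deubiquitinase that restrains the pathway, fell by 0.25 in wildtype cells (limma, Benjamini-Hochberg-adjusted p = 0.0415). The subunit gene Rela and the IkB kinase genes Chuk, Ikbkb and Ikbkg passed the test in none of the 9 comparisons. Rela had 29.9, 57.9 and 34.6 TPM in the MTOB samples of Ctbp1/2dKO cells, with replicate 2 far above the others, and 32.5 to 36.7 TPM in those of wildtype cells.

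Receptors and target genes of the pathway also rose with MTOB in part. Of 11 listed receptors and co-receptors 10 were tested, of which 4 rose and 1 fell in wildtype and 3 rose and 0 fell in Ctbp1/2dKO cells. Cd40, Cd14 and Tlr2 rose in both, Cd40 by 2.09 and 1.58, Cd14 by 0.86 and 1.18 and Tlr2 by 0.58 and 0.64 on the log2 scale. Cd14 was also counted among the macrophage markers above. Tlr4, the receptor for lipopolysaccharide, fell by 0.32 in wildtype cells (limma, Benjamini-Hochberg-adjusted p = 0.0241). Of 40 listed inflammatory target genes 31 were tested. Il6, Il12b, Cxcl1, Cxcl3, Vcam1 and Csf2 had no row, and Il1b, Il10 and Il1rn did not pass the filter on low values. Of the 31, 14 rose and 3 fell in wildtype cells, while 14 rose and 0 fell in Ctbp1/2dKO cells, and 11 rose in both. Of all genes, 3.8% rose and 3.46% fell in wildtype cells, 3.04% rose and 3.54% fell in Ctbp1/2dKO cells, and 1.98% rose in both. Tnf rose by 1.39 and 1.24 on the log2 scale, from 60.0 to 73.6 TPM up to 171 to 174 TPM in wildtype and from 37.6 to 42.8 TPM up to 90.4 to 98.6 TPM in Ctbp1/2dKO cells. The chemokine genes Ccl3 (1.65 and 1.21) and Ccl4 (2.08 and 1.16), the cyclooxygenase gene Ptgs2 (1.79 and 2.16) and the adhesion gene Icam1 (0.54 and 0.80) rose in both genotypes. Cd83, Plau and Socs3 fell in wildtype cells, by 0.62, 0.59 and 0.30 on the log2 scale.

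With 4-Cl-HIPP, 0 of the 46 other pathway genes passed the test in either genotype. Of all genes, 0.324% rose and 0.0427% fell in wildtype cells, and 0.403% rose and 0.0977% fell in Ctbp1/2dKO cells. A count of 0 among 46 is thus near the share of all genes. Of the 31 target genes tested, 2 rose and 0 fell in wildtype cells, and 2 rose and 3 fell in Ctbp1/2dKO cells. Of the target genes, Plau and Socs3 rose in both genotypes, by 0.58 and 0.46 and by 0.53 and 0.54 on the log2 scale. Tnf, Ccl3 and Ccl4 fell in Ctbp1/2dKO cells, by 0.52, 0.83 and 1.12 on the log2 scale (limma, Benjamini-Hochberg-adjusted p = 0.00652, 0.00148 and 0.0352). Of the 10 receptors tested, only Tlr2 passed in wildtype cells, where it rose (0.29). Only Cd14 passed in Ctbp1/2dKO cells, where it fell (by 0.46 on the log2 scale). The members' own log2 fold changes in that comparison, from -0.38 to 0.17, did not pass the test.

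**Figure D4:**
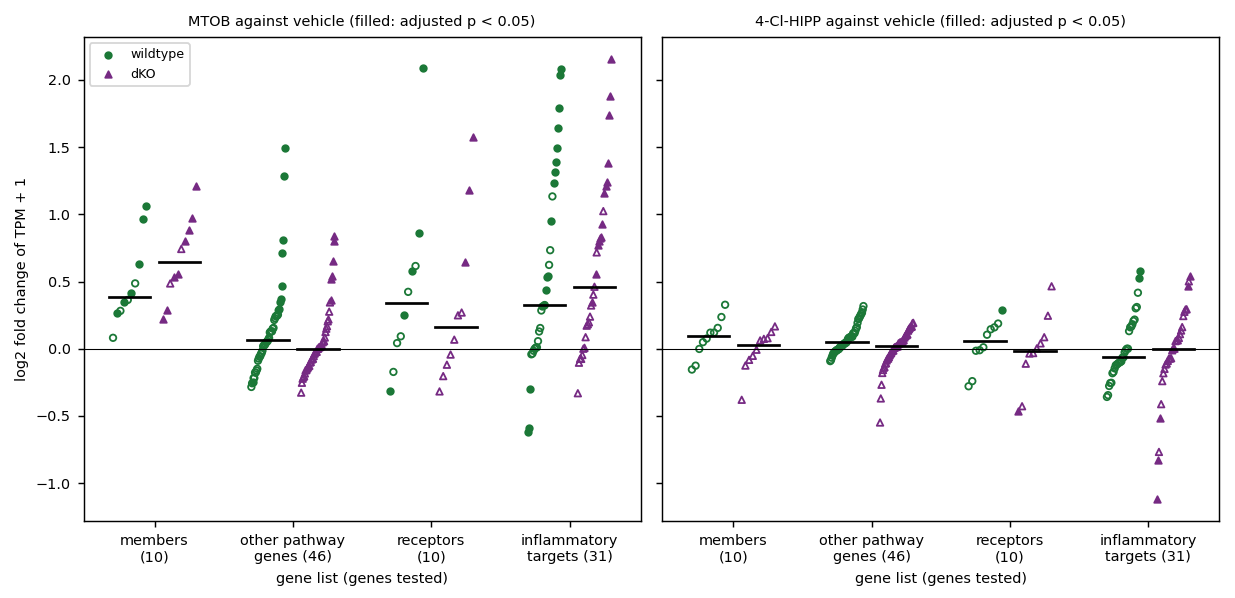
Log2 fold change of TPM + 1 (y axis) of the members and of 3 lists of related genes for each inhibitor against vehicle, in wildtype and Ctbp1/2dKO (dKO) cells, where each symbol is a gene and black lines are medians. Filled symbols passed the test. With MTOB the members' medians are 0.39 and 0.65 and those of the 46 other pathway genes 0.06 and -0.00034.

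The members varied together across the groups. Over the 18 samples, which fall into 6 groups, Pearson's r of log2(TPM + 1) between 2 members was above 0 for all 45 pairs, from 0.03 for Nfkb2 and Rel to 0.92 for Nfkbia and Traf1, with a median of 0.59. Once each group's mean was removed, r ranged from -0.58 to 0.47 with a median of -0.01, and 22 of the 45 pairs were above 0. Pairs of other genes were not read, so no share of all pairs can be set beside these counts. The 5 genes outside the members whose pattern was most like the members' mean z-score were Ptgir (r = 0.97), Hmox1 (0.97), Glipr1 (0.97), Srxn1 (0.96) and Selenow (0.96), of 8173 genes whose mean normalized count was 100 or more. These 18 samples share the 6 group means, and within groups r fell to 0.12 to 0.39 for the same 5 genes. Without Ctbp1/2dKO MTOB replicates 2 and 3, the samples with the most extreme scores (1.21 and 1.13), r was 0.95 to 0.96. Replicate 1 of the same group, with a score of 1.11, stayed in, so this cannot show how far r rests on that group.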

How the data were processed

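RNA-seq libraries of 18 J774.1 samples were analysed in 6 groups by labelled genotype and treatment. The authors quantified transcripts with Salmon 1.9.0 on GENCODE M28 (mouse build GRCm39) and summarised them per gene with tximport. They deposited TPM for each gene in each sample, which sum to 999766 to 999897 per sample, so no depth can be given. They also deposited 1 signal value for each gene, its mean normalized count from DESeq2 1.44.0, and their own log2 fold changes and adjusted p-values for each inhibitor, which were not used.

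Genes with a mean normalized count above its 10th percentile (0.222) were fitted here as log2(TPM + 1) with 6 group means over all 18 samples (limma 3.58.1, R 4.3.3, empirical Bayes with a variance trend on the mean normalized count), and p-values were adjusted by Benjamini-Hochberg over 16383 genes per comparison. A gene passed at an adjusted p below 0.05, and a 1.5-fold limit gave a further count. The 9 comparisons were each inhibitor against vehicle per genotype, genotype under each treatment, and the difference of each inhibitor's effect between genotypes. Inhibitor comparisons within a genotype share vehicle samples, and genotype comparisons reuse the same groups. The paper names biological triplicates, but the sources used here do not say whether these are separate cultures. The p-values therefore measure only the spread between these samples. The members and gene lists were chosen with earlier results of these data known. All 10 members were named in each comparison, and genes of other lists where they passed the test or are core components of the pathway. The procedure was tested on simulated data. Alternatives were 2 other pseudocounts, 2 other filters, no variance trend, rescaled TPM, a replicate block, fits of only the compared groups, and leaving out each sample. Gene positions are from GENCODE M39 on GRCm39 and promoters from RefSeq on GRCm38.p6. Figures used Python 3.11.15 with matplotlib 3.10.9.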

Additional observations from a re-analysis of the deposited data

How the results depend on the processing

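Of the calls of single members, 292 refits gave the same call, 44 lost it and 0 changed direction. The numbers of members past the threshold changed most when the fit held the compared groups alone, which leaves fewer samples to estimate the spread. There, 5 members passed for MTOB in Ctbp1/2dKO cells in place of 8, 4 for MTOB in wildtype cells in place of 6, 3 for genotype under MTOB in place of 5, and 0 for genotype under 4-Cl-HIPP in place of 2. The last count was 1 with no filter on low values. With a pseudocount of 0.1, 4 members passed for genotype under vehicle in place of 3. When single samples were left out, the counts ranged from 5 to 6 and from 6 to 7 for MTOB in wildtype and Ctbp1/2dKO cells, from 2 to 3, 3 to 5 and 0 to 1 for genotype under vehicle, MTOB and 4-Cl-HIPP, and from 0 to 1 for the difference of the MTOB effects. They were 0 for 4-Cl-HIPP in both genotypes and for the difference of its effects under all settings run. Replicates share numbers 1 to 3 across groups, but deviations of same-numbered samples correlated with an r of -0.0866 to 0.0895 over 45 pairs, so the numbers were not treated as pairs. With the replicate number as a block, 1 member passed for genotype under 4-Cl-HIPP in place of 2, and 8 genes in place of 15 passed for the difference of the MTOB effects. Over all genes, fits of only the compared groups gave 699 calls in place of 1189 for MTOB in wildtype cells, 305 in place of 1078 in Ctbp1/2dKO cells, 24 in place of 60 and 9 in place of 82 for 4-Cl-HIPP in wildtype and Ctbp1/2dKO cells, 995 in place of 1829 for genotype under MTOB, and 2 in place of 0 for the difference of the 4-Cl-HIPP effects. With no variance trend, 6 genes passed for the difference of the MTOB effects. Leaving out single samples gave 7 to 20 genes for that difference, 19 to 44 for 4-Cl-HIPP in wildtype cells and 36 to 80 in Ctbp1/2dKO cells, and 0 to 3 for the difference of the 4-Cl-HIPP effects. Beyond the fits with fewer samples, the cause was not tested. Rescaling TPM moved the median of all genes by at most 0.0142 on the log2 scale. TPM carry no counts per sample, so the error of low values could not be set against the depth of each library. For Tnfaip3 the mean normalized count over all samples was 39.5 and for Bcl3 20.0.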
